A study of Homo sapiens with 9 samples.

Results

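MIA PaCa-2 is an established human cell line derived from a pancreatic carcinoma, and the RNA described here came from MIA PaCa-2 cells given the vehicle alone, 0.1% DMSO for 24 h. These 3 DMSO libraries are the control arm of a set of 9, in which the other 6 libraries came from cells given 1 µM of the ERK1/2 inhibitor SCH772984 or 1 µM of the dual TBK1/IKKε inhibitor Compound 1. The labels give the genotype as WT for all of them, and the cells were kept in DMEM with fetal bovine serum and horse serum. The members were chosen by their DMSO label alone, and all 58735 genes of the count table were described in them.

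A tumour line of this kind carries the programmes that it retained from its tissue of origin and those that it gained or lost in culture. Epithelial cells are held together by E-cadherin, claudins and desmosomes around a keratin skeleton, whereas mesenchymal cells are recognised by vimentin, fibrillar collagens and factors such as ZEB1 that repress epithelial genes. The exocrine pancreas is made of enzyme-secreting acinar cells and of ducts, and its endocrine islets secrete hormones such as insulin.

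The 3 libraries held 10286223, 9566087 and 9464432 counts. Counts were scaled to gene length and to the library total as RPKM (reads per kilobase of exon, scaled to a fixed library total), so that levels of different genes can be set side by side. All values below are RPKM as mean ± SD over the 3 DMSO libraries (n = 3) unless they are named as counts. A gene was taken as detected where it reached 1 RPKM in all 3 libraries. A gene at 0 had no count in any of them, which at 3 counts per library still allows a low level that depends on its length. The smallest of these libraries thus allows up to 0.0513 RPKM for CDH1 and up to 0.126 RPKM for EPCAM. Nothing in the labels shows whether the 3 libraries came from separate cultures, so the SD covers the spread between these libraries and may be technical.

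Of 58735 genes, 22276 had a count in at least 1 DMSO library and 10390 were detected. Protein-coding genes made up 89.9% of the detected genes, with 9339 of 19951 (46.8%) detected and 5756 (28.9%) at 0. These shares are the background against which the gene groups below can be read. Outside the mitochondrial genome, 11 protein-coding genes reached a mean of 1000 RPKM or more and 348 lay between 100 and 1000 RPKM, while 3786 lay between 10 and 100 RPKM. The class between 10 and 100 RPKM held 52.4% of the counts of nuclear protein-coding genes, and the 11 genes at the top held 5.02%. The RNA was thus spread over many genes. In each library between 801 and 814 genes were needed to reach 50% of the counts, and the 100 most abundant genes held 19.9% ± 0.120.

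**Figure D1:**
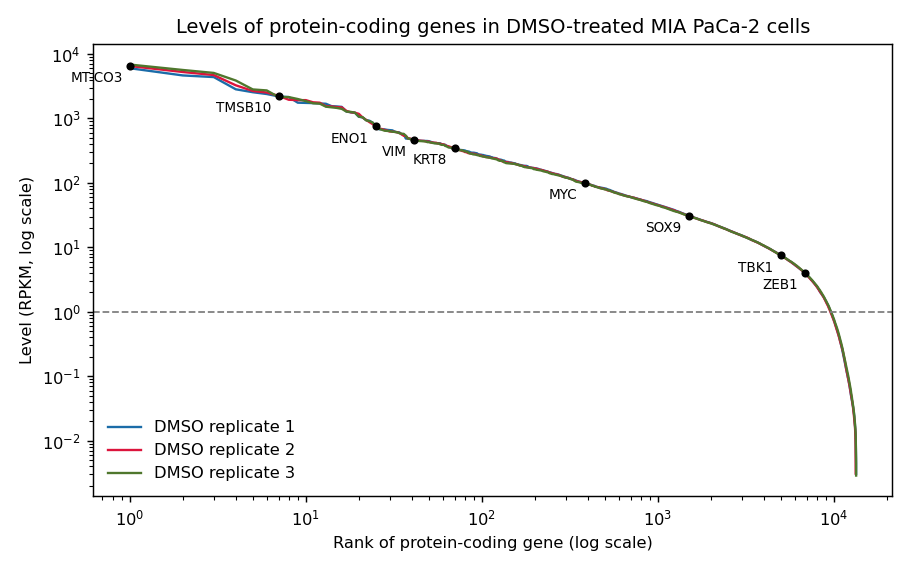
Level of each protein-coding gene in RPKM (log scale) against its rank (log scale), with a line for each DMSO library and black points at the mean of named genes. The 3 lines lie on each other except among the mitochondrially encoded genes at the top, MT-CO3 leads at 6433 RPKM, and the dashed line marks 1 RPKM.

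The most abundant messages came from the mitochondrial genome and from the cytoskeleton, iron storage, translation and protein folding. Of the 20 protein-coding genes with the highest level, 10 were mitochondrially encoded. The ranking depends on the gene length used, which here is the union of all exons: 13 of the 20 stayed among the top 20 with the median coding transcript length, and 19 with the exon bases under no other gene. MT-CO3, a subunit of cytochrome c oxidase, stood at 5988, 6480 and 6830 RPKM, and MT-CO1 of the same complex at 4629, 5231 and 5626 RPKM. MT-ATP6, a subunit of ATP synthase, stood at 3313 ± 522 RPKM. The highest nuclear gene was TMSB10 (thymosin beta 10, an actin-binding peptide) at 2382, 2235 and 2137 RPKM. Its relative TMSB4X followed at 1497 ± 81.6 RPKM, so that TMSB10 was 1.45 to 1.54 times as high in the 3 libraries. FTL, the ferritin light chain, reached 1984 ± 180 RPKM. The heavy chain gene FTH1 was listed at 202 ± 23.6 RPKM, but only 37.6% of its exon bases lie outside the exons of other genes. The cytoplasmic actins ACTB (1723 ± 45.5 RPKM) and ACTG1 (1495 ± 40.9 RPKM) followed, with EEF1A1 (1729 ± 33.5 RPKM) and EEF2 (1234 ± 9.15 RPKM), which elongate the peptide chain on the ribosome. The chaperones HSP90AB1 and HSP90AA1 stood at 1502 ± 23.5 and 1170 ± 93.6 RPKM, and the glycolytic enzyme GAPDH at 1285 ± 18.7 RPKM.

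By class of gene, 97.9% ± 0.0922 of the counts fell in protein-coding genes, and mitochondrially encoded genes of all classes took 3.67% ± 0.324. The mitochondrial share was 3.33%, 3.70% and 3.98% in replicates 1, 2 and 3. Mitochondrial ribosomal RNA accounted for 0.641% ± 0.0459, pseudogenes for 0.707% ± 0.0167 and long non-coding RNA classes for 0.650% ± 0.0363. Cytosolic ribosomal proteins took 5.55% ± 0.0627, with 84 of 87 genes detected. Among non-coding genes of at least 200 bases outside the mitochondrial genome, LINC02154 was highest at 70.2, 73.9 and 83.3 RPKM. BX322234.2 (68.0 ± 1.81 RPKM), the snoRNA host genes GAS5 (66.5 ± 2.60 RPKM) and SNHG5 (57.0 ± 4.34 RPKM), and LRRC75A-AS1 (51.8 ± 2.66 RPKM) came next. These levels are far below those of the leading messages. The methods name the provider's mRNA sequencing service, and the selection step itself is not described.

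The identity genes were split within both programmes. The line carried the keratins of simple epithelium and catenins together with vimentin and a set of mesenchymal surface and matrix genes, and the defining junction genes CDH1 (E-cadherin) and EPCAM were at 0. Of 34 epithelial junction genes, 15 were detected (44.1%) and 9 were at 0. Of 34 mesenchymal structure genes, 16 were detected (47.1%) and 9 were at 0. Both shares lie close to the 46.8% of all protein-coding genes, so the counts alone set neither list apart, and the identity lies in which members were present.

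KRT8 and KRT18, which pair into the keratin filaments of simple epithelia, were at 352, 345 and 339 RPKM and at 265, 269 and 248 RPKM. KRT19, a keratin of ducts, stood at 113, 101 and 93.9 RPKM, and KRT80 at 43.9 ± 1.72 RPKM. By contrast KRT7, the other common duct keratin, had 5, 0 and 1 counts, or 0.0482 ± 0.0625 RPKM, and KRT5, KRT17 and KRT20 were at 0. The catenins, which tie cadherins to actin, were present: CTNNA1 at 51.6 ± 2.45 RPKM, CTNNB1 at 24.4 ± 0.827 RPKM and CTNND1 at 18.3 ± 0.401 RPKM. The plakophilin PKP3 (19.3 ± 2.68 RPKM), a desmosomal protein, and the tight junction genes CLDN4 (13.9 ± 1.41 RPKM), CLDN1 (11.5 ± 0.887 RPKM) and OCLN (6.46 ± 0.194 RPKM) were also detected. The gene for E-cadherin, a partner that the catenins bind, was not. CDH1 (chr16:68737225-68835548) had 0 counts in the 3 DMSO libraries and 19 counts over the 6 inhibitor libraries. None of the 6 classical cadherin genes examined was detected, and the highest, CDH5, stood at 0.604 ± 0.136 RPKM. EPCAM (chr2:47345158-47387601) had 0 counts in all 9 libraries. CLDN3, CLDN7, ST14, SPINT1, RAB25 and MAL2 were at 0 as well.

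Among the claudins as a family, 5 of 24 were detected and 12 were at 0. The highest was CLDN11, at 160, 157 and 150 RPKM, a claudin best known from myelin and from Sertoli cells. It lay far above the epithelial CLDN4. Of 12 factors that keep epithelial identity, only TP63 (13.0 ± 0.0858 RPKM), a factor of squamous and basal epithelium, and EHF (9.41 ± 0.300 RPKM), an ETS factor, were detected. GRHL2 and GRHL3 were at 0, and the epithelial splicing regulators ESRP1 and ESRP2 lay under 0.05 RPKM. RBFOX2 (12.9 ± 0.292 RPKM) and QKI (8.64 ± 0.259 RPKM), splicing factors tied to the mesenchymal state, were detected.

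VIM (vimentin, chr10:17228259-17237593) was at 449, 473 and 450 RPKM, above every keratin. S100A4 (259 ± 3.86 RPKM), the hyaluronan receptor CD44 (183 ± 3.90 RPKM), LOXL2 (163 ± 3.62 RPKM), which cross-links collagen, and the receptor kinase AXL (44.7 ± 4.04 RPKM) were all detected. The collagens were uneven. COL5A2 stood at 146, 140 and 136 RPKM, whereas its partner chain COL5A1 stood at 0.415 ± 0.0492 RPKM. COL1A2 stood at 43.1, 38.8 and 41.7 RPKM, whereas COL1A1, the gene for the other chain of type I collagen, had 4, 1 and 2 counts. FN1 (fibronectin) had 8, 7 and 16 counts, or 0.0616 ± 0.0312 RPKM. CDH2 (N-cadherin), CDH11, PDGFRA, POSTN and DCN were at 0, and PDGFRB stood under 0.05 RPKM. Of the mesenchymal regulators 6 of 12 were detected and 6 were at 0: ZEB1 was at 4.26, 3.64 and 4.01 RPKM, FOXC1 at 5.41 ± 0.277 RPKM, and SNAI1 and SNAI2 at 1.95 ± 0.220 and 1.18 ± 0.0579 RPKM, while ZEB2, TWIST1, TWIST2, PRRX1 and TCF4 were at 0.

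**Figure D2:**
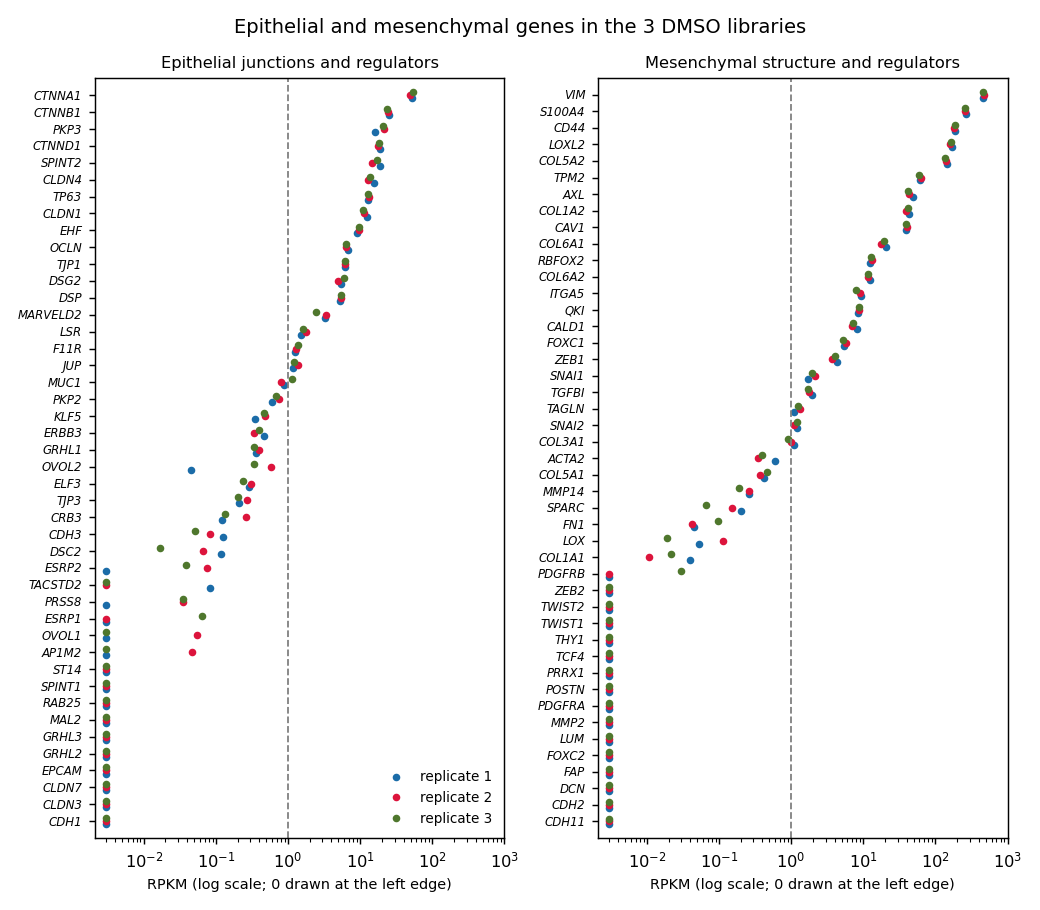
RPKM (log scale) of epithelial genes (left) and mesenchymal genes (right) in the 3 DMSO libraries, with genes ordered by mean level, values of 0 drawn at the left edge and a dashed line at 1 RPKM. VIM reaches 458 RPKM and CTNNA1 51.6 RPKM, while CDH1, EPCAM, CDH2 and ZEB2 sit at the left edge in all 3 libraries.

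Few marker genes of the differentiated pancreas were detected. None of 22 acinar genes was detected and 18 were at 0, among them PRSS1, PNLIP, CPA1 and the acinar factors PTF1A and RBPJL. CEL, a bile-salt dependent lipase, was the highest at 0.840 ± 0.370 RPKM. Of 18 ductal genes 3 were detected, namely KRT19, SOX9 (30.5, 30.9 and 30.3 RPKM), a factor of duct and progenitor cells, and ONECUT2 (2.58 ± 0.287 RPKM). CFTR and SPP1 were at 0. Of 28 endocrine genes 4 were detected and 16 were at 0, including INS, GCG, SST and CHGA. The detected ones were NTSR1, the neurotensin receptor, at 46.0, 42.0 and 41.6 RPKM, SCG2 (secretogranin II) at 34.0, 32.8 and 33.7 RPKM, ENO2 at 13.0 ± 0.831 RPKM and SYP at 2.49 ± 0.304 RPKM. The factors of pancreatic endoderm were mostly undetected, with 2 of 13 detected and 6 at 0. HNF4A, FOXA2, FOXA3, GATA6 and SOX17 were among those at 0, and PDX1 stood at 0.302 ± 0.209 RPKM. GATA4 (6.66 ± 0.643 RPKM) and MNX1 (6.48 ± 0.527 RPKM) were the exceptions. In all, 7 of 68 acinar, ductal and endocrine genes were detected (10.3%), against 46.8% of protein-coding genes. With TPM, which brings length-scaled counts to a common sum, 12 of the 68 were detected, beside 10790 of 19951 protein-coding genes. Markers of differentiated pancreas were therefore mostly undetected in cells labelled as pancreatic cancer. Marker lists of other tissues were low too, from 0.0% detected for liver to 16.7% for endothelium, and no normal pancreas was there for comparison.

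Pancreatic tumours are often sorted into a classical and a basal-like expression subtype. None of the 24 classical genes was detected and 17 were at 0, including TFF1, TFF2, AGR2 and CEACAM6. Of 24 basal-like genes 6 were detected and 13 were at 0. Both lists thus lay below the 46.8% detected among all protein-coding genes, and the subtype of the line was not tested. The highest basal-like genes were the glucose transporter SLC2A1 (49.0 ± 1.00 RPKM), the EGF-family ligand AREG (46.9 ± 2.59 RPKM) and the non-coding RNA UCA1 (17.9 ± 1.17 RPKM). CTSV, S100A2 and KRT15 were detected at lower levels. The squamous keratins KRT6A and KRT17 of that list were at 0. Mucins were absent from the detected genes, with 0 of 17 reaching 1 RPKM in every library, although MUC1 came near at 0.935 ± 0.183 RPKM.

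Several transcription factors best known from other tissues were present. The HOXB cluster had 8 of 10 genes detected, led by HOXB8 at 37.9, 38.1 and 41.6 RPKM and HOXB9 at 35.3, 30.7 and 29.7 RPKM, whereas 1 of 11 HOXA, 1 of 9 HOXC and 0 of 9 HOXD genes were detected. Under 75% of the exon bases lie outside other genes for 6 of the 11 HOXA and 3 of the 9 HOXD genes, against 1 of the 10 HOXB genes, so the levels of those genes are uncertain. HOX proteins set position along the body axis. GATA2 (23.7, 25.9 and 25.4 RPKM), a factor of blood and endothelium, the cardiac factor NKX2-5 (29.3 ± 2.74 RPKM) and FOXD1 (28.5 ± 1.12 RPKM), known from kidney stroma, were each detected. So were the orphan receptors NR2F1 (30.3 ± 0.907 RPKM) and NR2F2 (24.3 ± 0.730 RPKM) and the Hippo pathway factor TEAD4 (37.4 ± 3.12 RPKM). Over the table's own annotation, 689 of 1547 transcription factor genes were detected and 369 were at 0. The share detected is near the 46.8% of all protein-coding genes and does not set these genes apart. The MYB family in that annotation had 19 of 22 genes detected, whereas the homeobox family had 44 of 192. The highest members were YBX1 (1036 ± 6.11 RPKM), which also binds messenger RNA, and HMGA1 (274 ± 11.6 RPKM), an architectural chromatin protein. ID1 (174 ± 5.61 RPKM), an inhibitor of basic helix-loop-helix factors, and the cell cycle factor MYBL2 (147 ± 5.61 RPKM) stood lower. The genes in this paragraph were picked from whole families after their values were seen.

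Upstream sequences are shown for a pair of abundant nuclear genes, TMSB10 and ALDH1A1, and for genes at or near 0 that are general (CLDN3, FN1) or pancreas-specific (PRSS1, INS). Each is the 250 bases before the start site from the RefSeq table for GRCh38.p14, written 5′ to 3′ on the gene's strand, and capitals mark CG pairs, the sites at which DNA can be methylated. TMSB10 lies at chr2:84905406-84905655 on the plus strand, ALDH1A1 at chr9:72953054-72953303 on the minus strand, CLDN3 at chr7:73770271-73770520 on the minus strand, FN1 at chr2:215436069-215436318 on the minus strand, PRSS1 at chr7:142749222-142749471 on the plus strand and INS at chr11:2161210-2161459 on the minus strand.
TMSB10: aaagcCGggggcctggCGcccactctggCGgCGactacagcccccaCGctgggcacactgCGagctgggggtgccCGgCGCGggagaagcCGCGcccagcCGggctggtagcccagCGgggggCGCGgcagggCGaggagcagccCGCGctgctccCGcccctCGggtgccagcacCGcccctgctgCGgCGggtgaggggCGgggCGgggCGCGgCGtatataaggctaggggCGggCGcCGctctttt
ALDH1A1: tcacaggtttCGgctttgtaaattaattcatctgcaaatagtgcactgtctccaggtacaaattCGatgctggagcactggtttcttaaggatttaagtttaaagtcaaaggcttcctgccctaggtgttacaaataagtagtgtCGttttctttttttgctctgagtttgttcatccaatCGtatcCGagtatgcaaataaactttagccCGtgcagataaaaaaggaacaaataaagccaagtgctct
CLDN3: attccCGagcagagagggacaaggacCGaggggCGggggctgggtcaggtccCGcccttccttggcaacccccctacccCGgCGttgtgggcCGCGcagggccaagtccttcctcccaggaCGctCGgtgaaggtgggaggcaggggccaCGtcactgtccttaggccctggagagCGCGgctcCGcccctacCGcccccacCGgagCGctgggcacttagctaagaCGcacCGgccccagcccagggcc
FN1: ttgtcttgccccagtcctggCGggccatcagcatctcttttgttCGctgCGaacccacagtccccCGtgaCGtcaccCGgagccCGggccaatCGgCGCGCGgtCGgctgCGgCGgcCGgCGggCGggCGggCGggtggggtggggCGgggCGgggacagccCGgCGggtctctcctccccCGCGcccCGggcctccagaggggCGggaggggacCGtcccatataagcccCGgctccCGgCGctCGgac
PRSS1: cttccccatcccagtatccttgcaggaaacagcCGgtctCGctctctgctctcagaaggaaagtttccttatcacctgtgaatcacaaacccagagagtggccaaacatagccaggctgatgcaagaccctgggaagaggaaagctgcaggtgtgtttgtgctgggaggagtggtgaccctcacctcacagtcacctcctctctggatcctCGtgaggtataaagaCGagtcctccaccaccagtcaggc
INS: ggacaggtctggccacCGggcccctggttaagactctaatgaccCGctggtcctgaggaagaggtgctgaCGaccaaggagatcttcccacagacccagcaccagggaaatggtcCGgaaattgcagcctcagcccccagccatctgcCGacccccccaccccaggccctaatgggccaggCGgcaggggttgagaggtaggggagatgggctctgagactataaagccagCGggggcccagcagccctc

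The number of CG pairs did not follow the level in these 6 sequences. Their genes were picked by hand with earlier results of these data known, so they give no rule for other genes. TMSB10, at 2251 RPKM, held 31 CG pairs and 78.0% G+C, and FN1, at 0.0616 RPKM, held 32 and 76.4%. CLDN3, at 0, held 19 CG pairs. ALDH1A1, a retinaldehyde dehydrogenase at 410, 408 and 388 RPKM, held 6 with 38.4% G+C. PRSS1 and INS held 4 and 7, and both contained the letters TATAAA, searched on both strands and found in 10.7% of the 34961 upstream sequences of the table. Symbols matched the table for 74.8% of protein-coding genes, under the 80% needed, so a comparison over all genes was void. It could be made for single families with enough matches. The ratio of CG pairs to the number expected from C and G content had a median of 0.558 over the table. It was 0.129 for 305 olfactory receptor genes and 0.135 for 80 keratin-associated protein genes, families with 0 detected genes. It was 0.755 for 19 glycolysis genes and 0.874 for 22 stress response genes, of which most were detected. Other sets ran the other way, with 0.900 for 9 matched HOXA genes, a cluster with 1 of 11 genes detected, and 0.209 for 18 matched S100 genes, a family with 9 of 19 detected. TATAAA stood upstream of 63 of the 80 keratin-associated protein genes.

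Genes of RAS to ERK signalling, the pathway that SCH772984 addresses, were almost all present. In this cascade RAS proteins activate RAF kinases, which activate MEK and then ERK. Of 33 genes 29 were detected and none was at 0. Among the RAS genes, HRAS stood at 30.1, 26.4 and 26.3 RPKM and NRAS at 24.7, 26.7 and 24.6 RPKM, with ranges that overlap. ARAF (24.4 ± 0.421 RPKM) was the highest RAF gene. MAP2K2 stood at 66.0, 70.6 and 61.3 RPKM, 6.25 ± 0.223 times as high as MAP2K1. Genes that ERK activity is known to induce were present, with FOSL1 at 52.7 ± 1.65 RPKM, SPRY2 at 37.5 ± 1.16 RPKM and PHLDA1 at 29.5 ± 0.519 RPKM. DUSP4 was at 0.0902 ± 0.0324 RPKM, and DUSP6 was listed at 0.856 ± 0.300 RPKM with 59.5% of its exon bases outside other genes.

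Of the kinases that Compound 1 addresses, TBK1 was detected and IKBKE stayed below 1 RPKM, where the median over all protein-coding genes was 0.757 RPKM. TBK1 had 344, 348 and 349 counts, or 7.02, 7.64 and 7.74 RPKM. IKBKE, the gene for IKKε, had 13, 18 and 16 counts, or 0.333, 0.496 and 0.446 RPKM, so that TBK1 was 17.9 ± 2.88 times as high. The cut of 1 RPKM is a strict one, as 10790 protein-coding genes were detected at 1 TPM in place of 9339 at 1 RPKM. With counts in every library, IKBKE was low and not absent. Among 27 genes around these kinases 19 were detected. Their adaptors and substrates SQSTM1 (31.1 ± 1.84 RPKM), IRF3 (19.1 ± 0.504 RPKM), MAVS (14.7 ± 0.273 RPKM) and TRAF3 (11.1 ± 0.731 RPKM) were among them. The RNA sensors DDX58 (1.04 ± 0.0710 RPKM) and IFIH1 (0.128 ± 0.0465 RPKM) and the adaptor TMEM173, known as STING (0.362 ± 0.0382 RPKM), lay low. All 21 interferon genes were at 0. Of 25 interferon-stimulated genes 10 were detected (40.0%), led by IFITM3 (40.0, 36.0 and 38.3 RPKM), while OAS1 and IFI44L were at 0 and MX1 stood at 0.0511 ± 0.0235 RPKM.

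All 25 proliferation genes were detected, with a median of 62.2 RPKM against 0.757 RPKM over protein-coding genes. CDC20, which activates the anaphase-promoting complex, was at 338, 347 and 352 RPKM, CCNB1 (cyclin B1) at 251 ± 4.53 RPKM and AURKA at 84.4 ± 1.36 RPKM. Of 21 glycolysis genes 19 were detected, led after GAPDH by ENO1 (751 ± 13.0 RPKM), TPI1 (452 ± 9.61 RPKM) and PKM (385 ± 4.51 RPKM). LDHA, which turns pyruvate into lactate, stood at 201, 205 and 201 RPKM, and LDHB of the same enzyme had 0 counts in all 9 libraries, with 66.6% of its exon bases outside other genes. ALDOA was listed at 2.07 ± 0.234 RPKM, but 46.5% of its exon bases lie outside other genes and its level is uncertain. Cholesterol synthesis had 19 of 20 genes detected, and stress response genes 20 of 24.

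Receptor and ligand families varied in how many members were detected, against 46.8% of all protein-coding genes. Of 40 receptor tyrosine kinases 18 were detected (45.0%), and EPHA2, a receptor for ephrins, was far ahead at 208, 207 and 200 RPKM. AXL, EPHB4 (29.7 ± 0.889 RPKM), EGFR (20.9, 21.9 and 23.4 RPKM), RYK (19.2 ± 1.11 RPKM), the collagen receptor DDR2 (15.9 ± 0.550 RPKM) and ERBB2 (14.5 ± 0.554 RPKM) followed. ERBB3 was below 1 RPKM at 0.398 ± 0.0636 RPKM, and ALK, KIT, FLT3 and ERBB4 were at 0. Among 40 cytokines and chemokines 8 were detected. The neutrophil attractants CXCL1 (84.4, 93.3 and 83.2 RPKM), CXCL8 (57.0 ± 1.87 RPKM) and CXCL5 (31.6 ± 1.18 RPKM) led, followed by CSF1, LIF and CSF3, whereas IL6, CCL2, CXCL10 and CXCL12 were at 0. The hedgehog ligand SHH was present at 5.77, 5.87 and 4.78 RPKM with its signal transducer SMO at 15.8 ± 1.51 RPKM, while PTCH1 (0.415 ± 0.0406 RPKM) and GLI1 (0.0647 ± 0.0374 RPKM), which hedgehog signalling is known to induce, lay under 1 RPKM. Of 36 WNT ligands, receptors and regulators 11 were detected, and these were receptors and their regulators such as FZD2 (17.8 ± 1.80 RPKM) and LRP5 (17.3 ± 1.69 RPKM), with no WNT ligand among them. NOTCH1 (25.7 ± 1.41 RPKM) and its ligand JAG2 (43.1 ± 0.610 RPKM) were among 8 of 15 NOTCH pathway genes detected (53.3%).

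**Figure D3:**
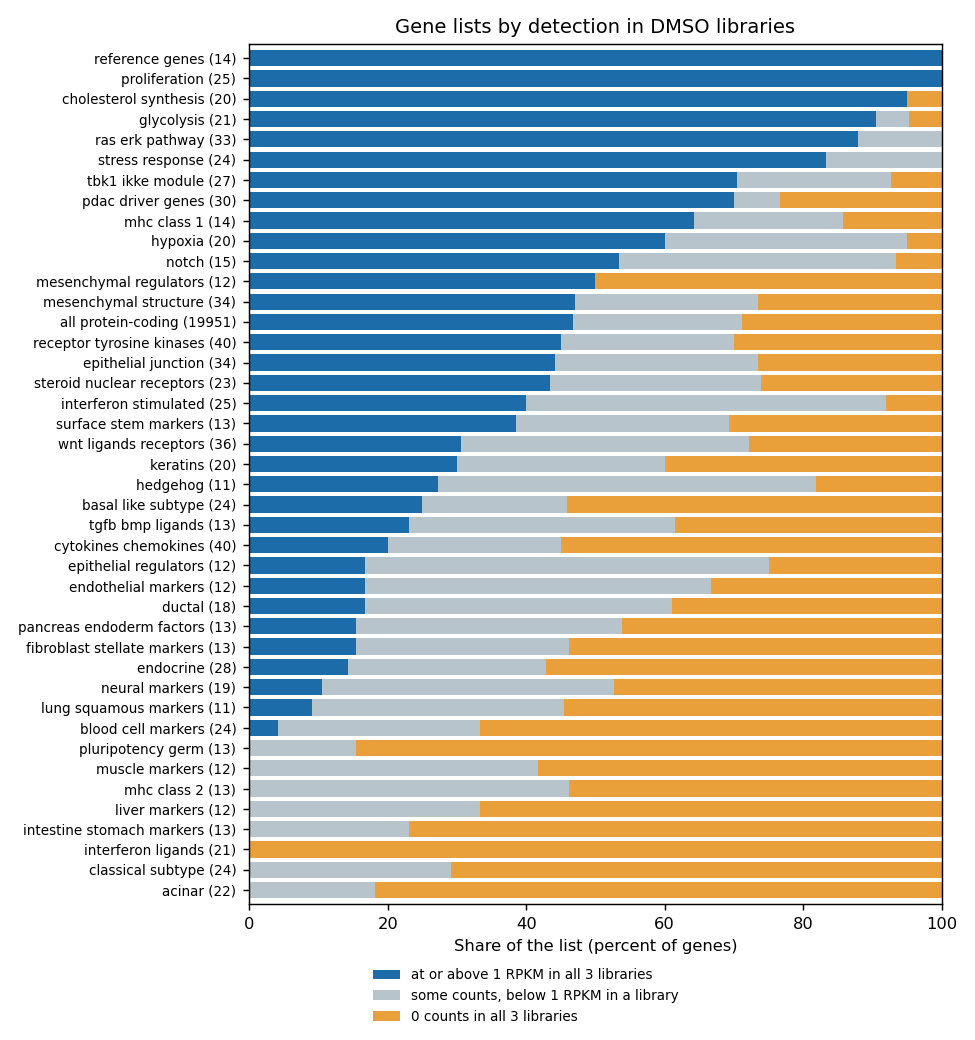
Share of each gene list (percent of its genes, list size in parentheses) that was detected in all 3 DMSO libraries (blue), had counts but stayed below 1 RPKM in a library (grey) or had 0 counts in all 3 (orange). Reference and proliferation genes are detected in full, interferon genes are all at 0; the share detected is 44.1% for epithelial junction genes and 47.1% for mesenchymal structure genes.

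Several large families had no detected member, and markers of other tissues had few. None of 381 olfactory receptor genes was detected and 376 were at 0. The same held for keratin-associated proteins, with 0 of 94 detected and 91 at 0, and for beta-defensins, with 39 of 39 at 0. All 26 MAGE genes of groups A, B and C and all 32 GAGE, PAGE, XAGE and SSX genes, which many tumours switch on, were at 0. None of 13 pluripotency and germ cell genes, 12 liver genes, 12 muscle genes, 13 intestine and stomach genes or 13 MHC class II genes was detected. Blood cell markers had 1 of 24 detected, CD14 at 1.40 ± 0.195 RPKM, and PTPRC, CD3E and HBB were at 0. Endothelial markers had 2 of 12 detected, ROBO4 (4.10 ± 0.427 RPKM) and EMCN (1.72 ± 0.104 RPKM), with KDR, TEK and TIE1 at 0. Of 13 fibroblast and stellate cell markers 2 were detected, RGS5 (49.3 ± 1.45 RPKM) and COL1A2. Neural markers had 2 of 19 detected, SYT1 (3.47 ± 0.379 RPKM) and MAP2 (1.82 ± 0.155 RPKM), and genes named as GABA or glutamate receptors had 3 of 47, of which GRINA, at 89.6 ± 5.59 RPKM, was the highest. In bulk RNA a few cells that express a gene strongly and many that express it weakly cannot be told apart. A zero in DMSO was not always a zero elsewhere, since 1833 of the 5756 protein-coding genes at 0 had a count in an inhibitor library, with a median of 3 summed counts.

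Genes often altered in pancreatic cancer were detected in 21 of 30 cases. MYC stood at 99.1, 98.9 and 97.9 RPKM and SMAD4 at 4.42, 4.51 and 4.69 RPKM. Of these genes, 8 had at most 3 counts in every DMSO library, namely CDKN2A, CDKN2B, MTAP, KDM6A, ARID1B, GATA6, RNF43 and TGFBR2. CDKN2A and CDKN2B encode inhibitors of cell cycle kinases, and MTAP, an enzyme of methionine salvage, lies beside them. All of them sat in an unbroken run of 28 protein-coding genes at 0 on chromosome 9, from MLLT3 to TUSC1 (chr9:20341665-25678440, 5.34 Mb). The run held 16 interferon genes, and also FOCAD, HACD4, KLHL9 and MLLT3. Of 81 annotated genes of any class inside it, 80 were at 0, and the exception was the processed pseudogene CLIC4P1 with 9 counts. Across the 6 inhibitor libraries 27 of the 28 genes were at 0 too, and ELAVL2 had 2 counts. The nearest detected genes were RPS6 (264 RPKM) before the run, with ACER2 and SLC24A2 between them at 0.821 and 0.00655 RPKM, and CAAP1 (162, 200 and 170 counts) after it. Among runs of protein-coding genes at 0 it was the 7th longest, level with a run of 28 genes on chromosome 17 from KRTAP4-8 to KRT38, and the longest run, of 65 genes on chromosome 11, held 57 olfactory receptor genes.

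A shorter run surrounded KDM6A, a histone H3 lysine 27 demethylase on the X chromosome. The 7 genes from MAOB to CXorf36 (chrX:43766611-45200901, 1.43 Mb) were at 0, between MAOA (59, 74 and 60 counts) and KRBOX4 (166, 162 and 140 counts), and 6 of the 7 were at 0 in the inhibitor libraries as well. Of 18 annotated genes of any class inside this run 16 were at 0, and AL034370.1 and RPSAP61 held 5 counts between them. ARID1B, a subunit of the BAF chromatin remodelling complex, had 0 counts in all 9 libraries, whereas TMEM242 beside it had 183, 134 and 138 counts. GATA6 lay at 0 between MIB1 and RBBP8, at 8.91 and 11.9 RPKM, with CTAGE1 (1 count) between. TGFBR2, the type II receptor for TGF-β, had 1 count in the 3 libraries, and STT3B beyond its neighbour GADL1 stood at 60.0 RPKM. RNF43 and HSF5 beside it were at 0, and of the 7 genes between MKS1 and MTMR4, the nearest detected genes, 5 were at 0 and none had more than 3 counts in a library. The zero of RNF43 is uncertain, because 26.1% of its exon bases lie outside other genes. Lost DNA and silent transcription cannot be told apart from these counts.

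**Figure D4:**
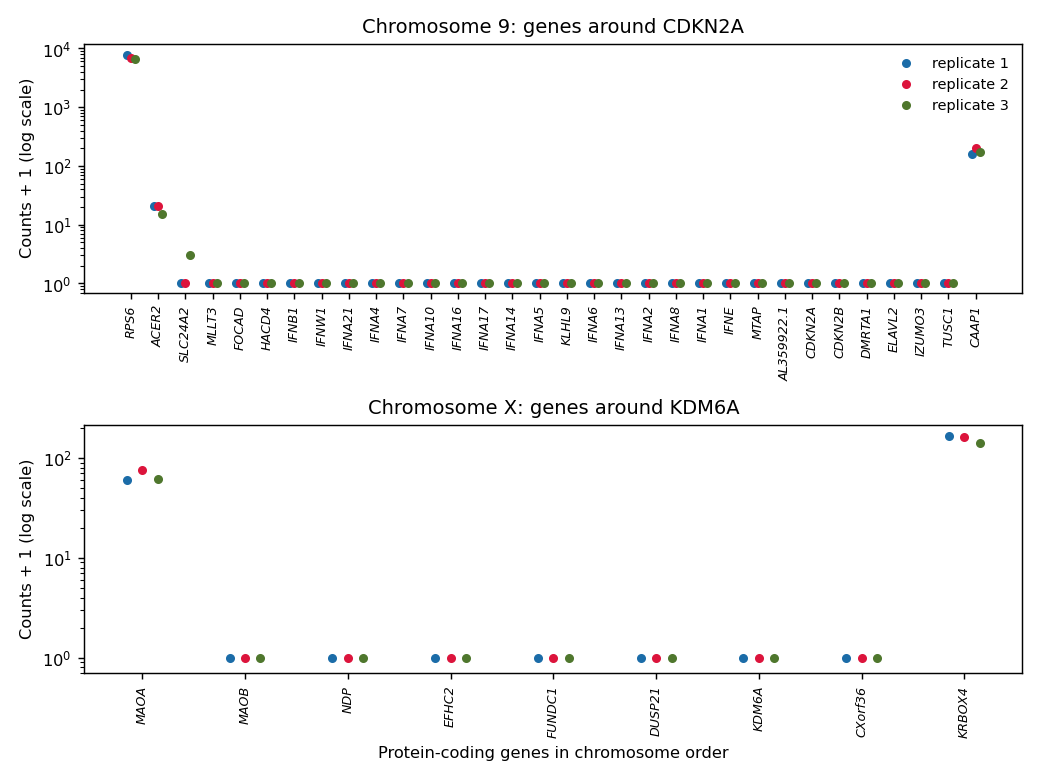
Counts plus 1 (log scale) in the 3 DMSO libraries for protein-coding genes in chromosome order around CDKN2A (top) and KDM6A (bottom), out to the first detected gene on each side. The 28 genes from MLLT3 to TUSC1 and the 7 genes from MAOB to CXorf36 all sit at 0 counts, drawn at 1.

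The 3 libraries were close to each other. Among 8724 genes with a mean of at least 100 counts, the SD was 5.35% of the mean at the median. The Poisson SD expected from counting error was 4.58% of the mean at the median, and the median of an SD estimated from so few libraries lies below the true SD, so the gap between both values understates the spread beyond counting. The median SD fell with abundance, from 8.29% beside a Poisson SD of 7.46% at 100 to 300 counts to 3.03% beside 1.42% above 3000 counts, so counting error made up less of the spread in abundant genes. The biological coefficient of variation that edgeR estimated in common over 12681 genes was 4.85%. Pearson's r of log2 RPKM across those genes was 0.991 to 0.993 for the 3 pairs of libraries, as a description across genes that share libraries. Replicates 1, 2 and 3 were the library farthest from the mean for 33.3%, 30.4% and 36.2% of the 8724 genes, so no library was farthest for most genes. Replicates 1 and 3 differed most. The common biological coefficient of variation was 5.49% without replicate 2, against 4.68% without replicate 1 and 4.31% without replicate 3.

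Several of the most variable genes are known to have near-identical copies elsewhere in the genome, although copy status was not tabulated. The 10 genes with the highest SD relative to the mean were SMN1, TCEA1P2, U2AF1L5, MTX1P1, EIF3C, GPR89B, GTF2IP1, DHFRP1, STAG3L3 and MTCO1P12, of which 6 are pseudogenes. SMN1 had 197, 226 and 826 counts, while its copy SMN2 had 79, 53 and 51. U2AF1L5 had 64, 510 and 330 counts against 99, 86 and 83 for U2AF1. EIF3C had 415, 1196 and 665 counts against 40, 44 and 65 for EIF3CL. Adding the copies left most of the spread for SMN1 with SMN2 (75.4% of the mean), for EIF3C with EIF3CL (51.5%) and for U2AF1 with U2AF1L5 (57.6%), but for GPR89A with GPR89B it came to 19.0%, below that of either gene. Levels of these genes are uncertain, and the part that shared sequence has in their spread was not tested. Only 36 of the 8724 genes had an SD above 25% of the mean.

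**Figure D5:**
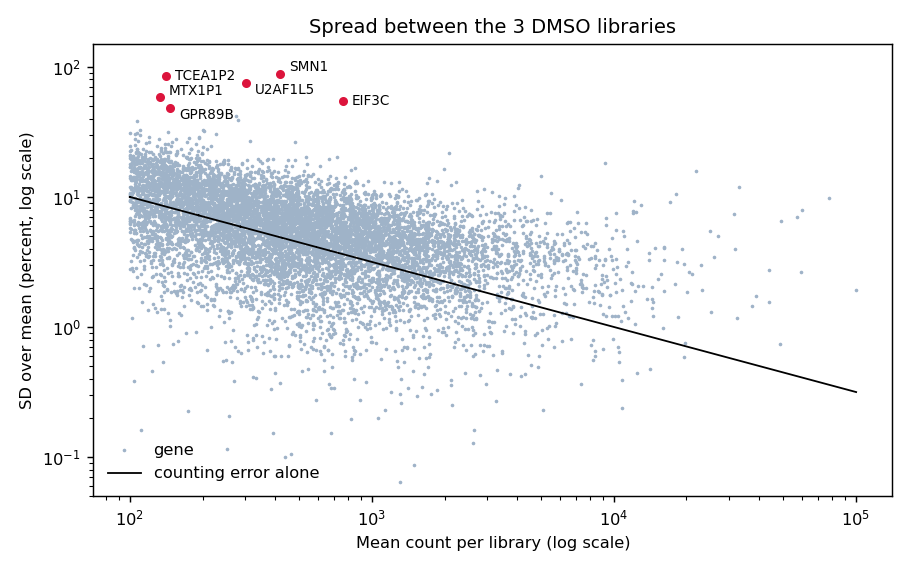
SD over mean between the 3 DMSO libraries (percent, log scale) against mean count per library (log scale) for 8724 genes, with the Poisson SD expected from counting error as a black line and the 6 most variable genes in red. SMN1 (87.9%), TCEA1P2 (84.4%) and U2AF1L5 (75.4%) lie far above the cloud, whose median is 5.35%.

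Among the lists and families with enough genes at 100 counts for a median to be given, mitochondrially encoded genes had the widest range of median deviation between libraries. The median of their log2 deviations from the gene means was -0.13 in replicate 1, 0.02 in replicate 2 and 0.12 in replicate 3, over 20 genes with at least 100 counts. The same medians for cytosolic ribosomal proteins were 0.02, -0.01 and -0.01, and for proliferation genes they lay within 0.01 of 0 in each library.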

How the data were processed

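RNA from MIA PaCa-2 cells in 0.1% DMSO (24 h, 3 libraries) was extracted with the Quick-RNA Mini-Prep kit and made into libraries by Novogene. The authors deposited 1 table of whole-number counts per gene, without normalization, for 58735 genes. The submitters' processing notes name HISAT2 2.0.5, featureCounts 1.5.0-p3 and hg38. Library totals were 9464432 to 10286223 counts. Deposited gene lengths equalled the union of GENCODE 29 exons for all 58735 genes. Of 710 genes lying wholly under exons of the opposite strand, 0 had a count in any of the 9 libraries, and of 1139 lying wholly under same-strand exons, 23 had a count in a DMSO library. The counting setting for strand and overlap is not given in the sources used here, so levels of the 2157 protein-coding genes with under 75% exon bases of their own are uncertain and may be understated.

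From the counts, RPKM (count per kilobase of exon, scaled to the library total), means and SDs were computed with Python 3.11.15 and pandas, and dispersion with edgeR 4.0.16. The code was checked on simulated counts. No groups were compared and no test was made, since the design gives a single arm. Genes named were the 20 most abundant protein-coding genes, 5 non-coding genes, the 10 most variable genes, members of hand-written lists and families, and neighbours of driver genes at or under 3 counts. Members and lists were chosen with earlier results of these data known. Alternatives were TMM and DESeq2 1.42.0 factors, TPM, thresholds of 0.5 and 2 RPKM, at least 10 counts, the mean in place of each library, a total over nuclear protein-coding genes, other gene lengths and leaving out each library. The 80% minimum for matched upstream sequences is a setting. Some genes are not reported here. Floors and intervals cover counting error only.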

Additional observations from a re-analysis of the deposited data

Results flagged for a closer look

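The 7 protein-coding genes given here had 0 counts in all 3 DMSO libraries and at least 100 counts when summed over the 6 inhibitor libraries, which are outside the DMSO description. IGFN1 had 3125 such counts (834, 955 and 1336 with SCH772984 and 0 with Compound 1) and LCNL1 had 268. ARMH1 had 175, ALPG (a placental-type alkaline phosphatase) had 174, EDNRB (an endothelin receptor) had 123, the gastric mucin MUC5AC had 101 and TNFSF10 (the death ligand TRAIL) had 100. In each of these 7 genes nearly all counts came from the SCH772984 libraries, with at most 3 counts over the Compound 1 libraries. The difference from DMSO was not tested here.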

How the results depend on the processing

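Over 12 results and 120 alternative values, 116 stayed within 1.5 times the reported count or within the spread between libraries, and 4 moved. With TPM in place of RPKM, 12 acinar, ductal and endocrine genes were detected in place of 7. Without mitochondrially encoded genes, the 100 most abundant genes held 18.0% of counts in place of 19.9%, and protein-coding genes held 98.6% in place of 97.9%. Among genes with a mean of at least 1000 counts, the median SD over mean was 3.49% in place of 5.35%. Leaving out each library in turn gave 9403 to 9439 detected protein-coding genes, a count that cannot fall when fewer libraries must reach the cut. Over all settings the count ran from 8176 at 2 RPKM to 10790 with TPM, against 9339 as reported. The background share of 46.8% thus depends on the cut. Settings that used another gene length, or only genes with at least 75% unique exon bases, were chosen after seeing the data. No paired analysis was possible because the description covers a single arm and comes from no test, so a replicate block could not be fitted. Depth limits the low end: 7421 protein-coding genes had at most 3 counts in each library, and their levels cannot be ranked.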
